A study of Homo sapiens with 14 samples.

Results

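The loci described here are those on chromosomes 1 to 22 that hold exactly 1 transcript and span 351 to 3000 bases from start to end. The stretches chr6:26017000-27861700 and chr19:52300000-59000000 were left out, which removed 100 of 7465 such loci. The 7365 loci that remained are 20.6% of the 35671 loci in the authors' files, and their median span was 914 bases. Spans and transcript counts chose them, and no expression value did. No locus of the series overlapped another.

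SETD2 travels with elongating RNA polymerase II and trimethylates histone H3 at lysine 36 (H3K36me3) along the bodies of transcribed genes. In human cells, spliced genes carry more of this mark than genes without introns. Short units with 1 transcript include intronless genes, noncoding RNAs and processed pseudogenes. Processed pseudogenes are reverse-transcribed copies of spliced mRNAs, and reads from a copy and from its parent gene can be hard to tell apart.

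The series compared SETD2 knockout HEK293T cells with wild type HEK293T cells, a human embryonic kidney line that carries the SV40 large T antigen. Total RNA was depleted of ribosomal RNA, and 3 libraries are listed for each genotype, among 14 samples in all. For 1 wild type library the extraction text is that of a ChIP experiment although its molecule is total RNA. The labels neither name the knockout clones nor say whether libraries came from separate cultures. The 8 ChIP samples against H3K36me3 and H4K16ac, 2 per mark and genotype, were not used.

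The authors deposited 1 FPKM value per transcript and group (fragments per kilobase of transcript, scaled for the number of mapped fragments) in each of 2 tables. The test table holds their p-values and q-values. The tracking table holds the lower and upper bound of an interval around each value, whose level is not given. No value per library was given, so the spread between libraries could not be computed and the deposited tests were used as they stand. If the libraries of a group share a culture, those p-values measure technical spread only. Gene names are not given in the files, and 0 of the 204092 transcript IDs matched the reference tables, so loci are given by Ensembl transcript ID and hg19 position. The share of noncoding RNAs, pseudogenes and intronless genes among them could not be counted, and the level of SETD2 itself was not analysed here.

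The lowest values of these loci showed the depth behind each table. Multiplied by the span less 203 bases, in kb, they piled up on a few fixed levels, each of which is what a single fragment from 1 library would be worth. The knockout column of the test table had 2 levels, at 0.0128 and 0.0175 FPKM × kb, with 98 and 61 loci on them. The knockout column of the tracking table had 3, at 0.00835, 0.0114 and 0.0221 FPKM × kb. The wild type column of the test table also had 3, at 0.00760, 0.00838 and 0.00849 FPKM × kb, with 59, 93 and 63 loci.

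Relative to the lowest level of its column, the knockout levels of the tracking table stood for depths of 100%, 73.2% and 37.8%. The wild type levels of the test table stood for 100%, 90.6% and 89.5%. In the tracking table, the lowest level was 0.00835 FPKM × kb in the knockout and 0.00739 FPKM × kb in wild type. The knockout values of the test table and the tracking table rested on different sets of levels. In the test table the 2 knockout levels stood for 100% and 73.1%. The third level of the tracking table, 0.0221 FPKM × kb, had no counterpart there. The test table thus showed 2 knockout levels where 3 knockout libraries are listed. Which libraries entered its values, p-values and q-values is not given. A value divided by the lowest level of its column gives the number of fragments of the deepest library that would make it, called fragment equivalents below. Below 0.04 FPKM × kb, 265 of 295 knockout values in the test table (89.8%) lay within 0.5% of a sum of the 2 levels. Such windows cover 5.85% of that range. The share was 96.5% in the shortest of 4 length classes and 69.2% in the longest. The levels were found in these same values, so a high share follows from the search and says nothing of introns by itself.

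**Figure D1:**
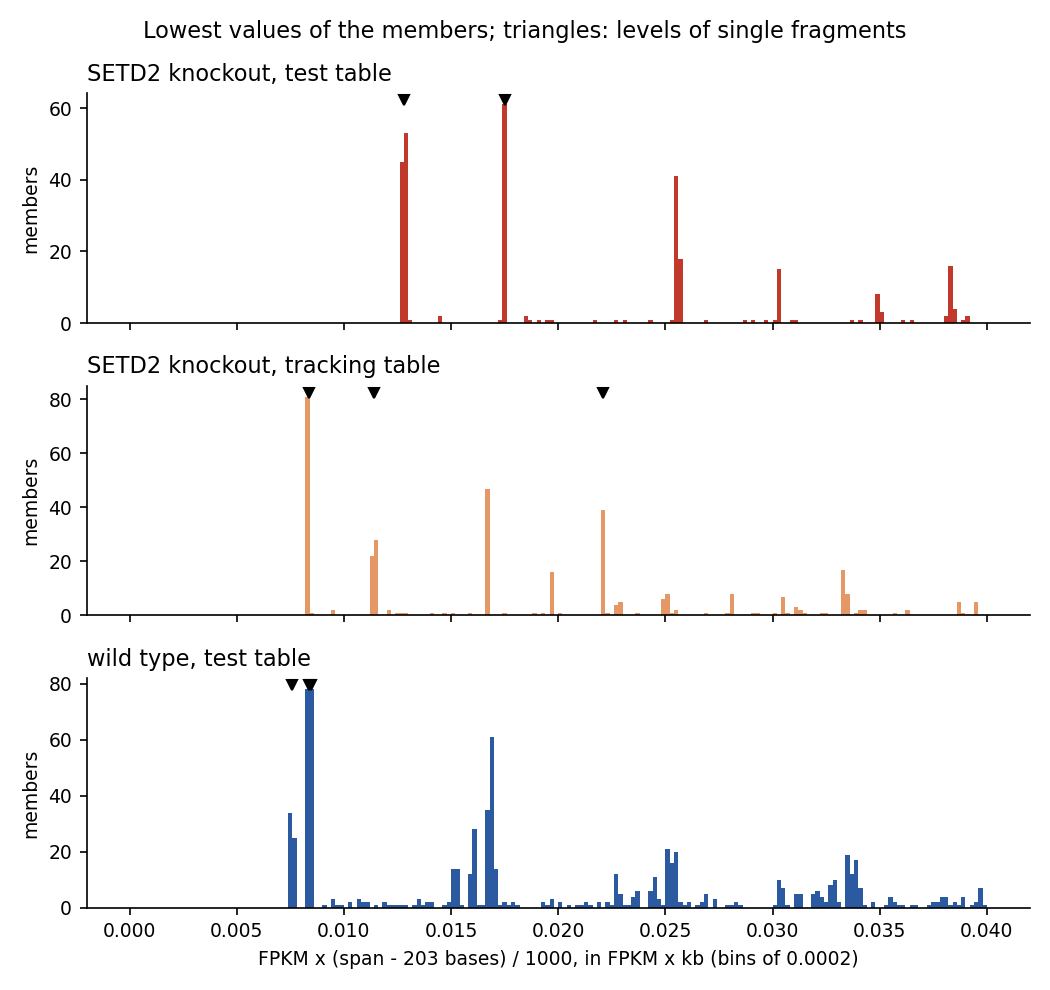
Histograms of the lowest values of the single-transcript loci, as FPKM times the span less 203 bases over 1000 (x axis, FPKM × kb, bins of 0.0002), with the number of loci on the y axis. From top to bottom are the SETD2 knockout in the test table, the knockout in the tracking table and wild type in the test table. Triangles mark the levels of single fragments, 2 in the top panel and 3 in each of the others (0.00838 and 0.00849 nearly coincide in wild type).

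RNA from these loci was listed at a low level or not at all in most cases. In the test table, 2246 loci (30.5%) were above 0 in the knockout and 2986 (40.5%) in wild type, while 4263 were at 0 in both. The gap closed as the minimum rose. At 0.1 FPKM or more there were 1814 loci in the knockout and 1995 in wild type, and at 1 FPKM or more 987 in the knockout and 968 in wild type. At 10 FPKM or more the counts were 324 in the knockout and 319 in wild type, and at 100 FPKM or more 41 in the knockout and 45 in wild type.

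The difference in detection therefore lay below 1 FPKM. The value was that of a single fragment for 163 loci in the knockout and 215 in wild type. At least 10 fragment equivalents were reached by 1638 loci in the knockout and 1918 in wild type. The depth of the groups, given by the levels above, moved with this difference, and its part in it was not tested.

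In the tracking table, wild type was above 0 at the same number of loci, 2986, but the knockout at 2373 (32.2%). The tracking table listed 127 loci above 0 in the knockout that the test table listed at 0, and 0 loci the other way. Their tracking values had a median of 0.102 FPKM and reached 1.74 FPKM, with 2 loci at 1 FPKM or more. The lowest of them lay on 1 level only, the 0.0221 level that the test table lacks. Among 1258 loci of at least 0.5 FPKM, the ratio of the tracking value to the test value in the knockout ran from 0.652 at the 5th percentile to 1.42 at the 95th, with a median of 0.981. In wild type (1243 loci) it ran from 0.975 to 0.978. Results are therefore given from both tables.

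Other loci of chromosomes 1 to 22 showed the same order of the groups. Above 0 in the test table were 25.2% in the knockout and 38.3% in wild type of the 3223 single-transcript loci over 3000 bases. Of the 4812 single-transcript loci under 351 bases the shares were 6.36% in the knockout and 10.1% in wild type. Of the 16101 loci with several transcripts they were 76.3% in the knockout and 84.2% in wild type. Here and below, the FPKM of such a locus is the sum over its transcripts. At the bounds of the length rule, the loci inside and outside had these values. Of 90 loci at most 10 bases inside the lower bound, 21 were above 0 in the knockout and 27 in wild type, and of 82 just below it, 15 in the knockout and 19 in wild type. Of 80 loci at most 100 bases inside the upper bound, 23 were above 0 in the knockout and 31 in wild type, and of 75 just above it, 22 in the knockout and 29 in wild type.

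**Figure D2:**
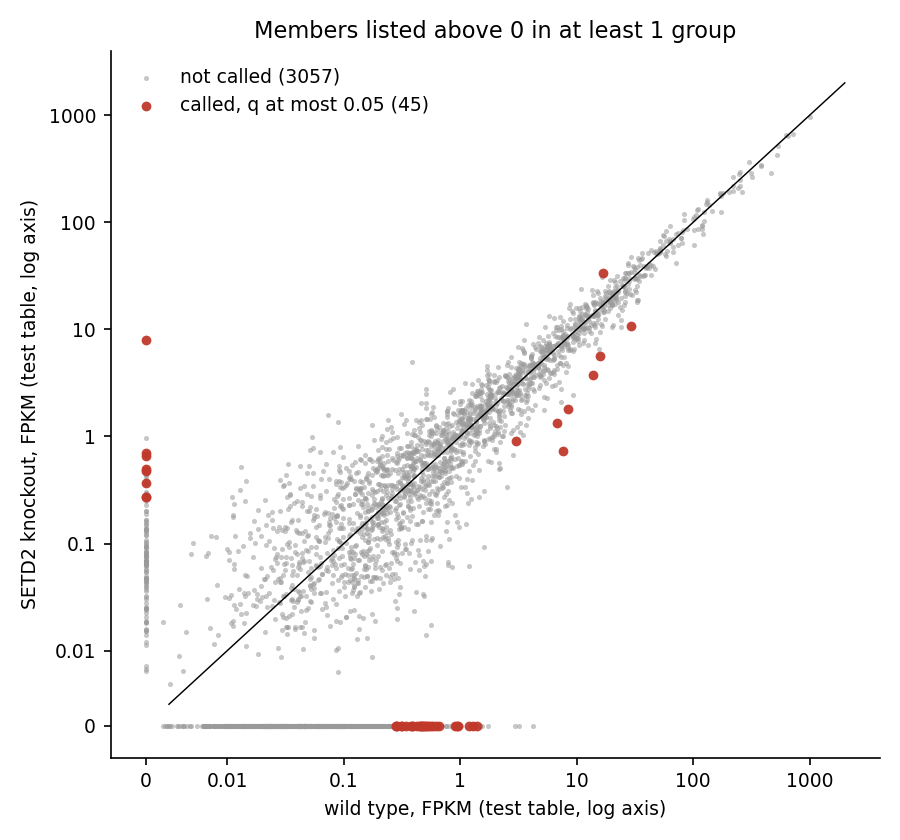
FPKM of the test table in SETD2 knockout cells (y axis) against wild type cells (x axis), both on log axes with 0 at the end, for the loci above 0 in at least 1 group. Each point is 1 locus, the line marks equal values, and the 45 loci called by the authors' q-value at 0.05 are red; most of those lie on an axis, where a group is at 0.

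A locus was counted as gained where wild type was at 0 and the knockout at 1 FPKM or more, and as lost where the knockout was at 0 and wild type at 1 FPKM or more. Few loci met either rule. There was 1 gain with 10 losses by the test table and 1 gain with 6 losses by the tracking table, and the loci that met the rule in both were 1 gain and 6 losses. The tables are not independent. Wild type values differed by a nearly constant ratio, and no locus at 0 in the tracking knockout was above 0 in the test knockout. A loss by the tracking table was therefore also a loss by the test table, and meeting both is no replication. Over all 35665 loci without a failed estimate, gains made up 0.0925% in the test table, 0.0897% in the tracking table and 0.0645% in both. Losses made up 0.336%, 0.272% and 0.272%. The single gain was 0.0136% of the 7365 loci in either table, and losses were 0.136% in the test table and 0.0815% in the tracking table, so both lay under the share over all loci at this minimum. Single-transcript loci under 351 bases held 79 of the 120 losses over all loci in the test table (1.64% of such loci). Losses made up 0.130% of loci with several transcripts and 0.0621% of single-transcript loci over 3000 bases. At a minimum of 0.1 FPKM the shares lay above those over all loci. By the test table, 42 loci were then gained (0.570%, against 0.513% of all loci) and 223 lost (3.03%, against 2.43%). The tracking table gave 47 gained (0.638%, against 0.496%) and 167 lost (2.27%, against 1.99%).

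The gained locus was ENST00000582078 at chr17:19504173-19504658, which spans 486 bases. It had 7.89 FPKM in the knockout of the test table and 5.14 FPKM (interval 3.51 to 6.77) in the knockout of the tracking table, against 0 in wild type in both. The knockout value stood for 174 fragment equivalents in either table, although the tracking table has 1 knockout level more. The ratio of its knockout values was the low end of the range above, 0.652, as it was for 120 loci to within 1%. The tracking value therefore adds no separate support for the gain. The authors' deposited table gives it p = 5e-05 and q = 0.0220. Its nearest neighbour, 494 bases away, was at 0 in both groups.

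The 6 loci lost in both tables were at 0 in the knockout and between 1.20 and 3.20 FPKM in wild type. ENST00000449242 (chr2:96811341-96812751) had the highest wild type value, 3.20 FPKM or 509 fragment equivalents, with 3.11 FPKM (interval 1.81 to 4.42) in the tracking table. It was not called in the authors' deposited table (p = 0.0025, q = 0.437). The neighbouring locus of 2 transcripts, 161 bases away, was also lower in the knockout, at 0.0986 FPKM against 0.608 FPKM in wild type. ENST00000412951 (chr2:216300976-216301715) was at 2.97 FPKM in wild type, or 210 fragment equivalents, and was not tested by the authors. The locus 80 bases from it, of 30 transcripts, differed little, with 17.6 FPKM in the knockout and 19.0 FPKM in wild type.

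ENST00000542291 (chr12:12876231-12876945) was at 1.75 FPKM in wild type (118 fragment equivalents) and had p = 0.0696 in the authors' deposited table. The locus 925 bases away went the other way, with 18.5 FPKM in the knockout and 11.0 FPKM in wild type. ENST00000521358 (chr8:39724955-39725331) had 1.53 FPKM in wild type, the fewest fragment equivalents of the 6 at 35.0. It was not called (p = 0.02645, q = 0.991 in the authors' deposited table). ENST00000434237 (chr22:50984844-50986081) had 1.48 FPKM in wild type and was not tested. Of the 6, only ENST00000423433 (chr2:45240353-45240807) was called, at 1.20 FPKM in wild type. It has the lowest wild type FPKM of the 6, which stands for 39.6 fragment equivalents, and its wild type interval in the tracking table starts at 0. The presence of RNA in wild type and the authors' call thus did not rank these loci alike.

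The other 4 losses of the test table did not meet the rule in the tracking table. ENST00000604279 (chr12:51150675-51151216) had 0 FPKM in the knockout against 4.23 FPKM in wild type in the test table, but 0.895 FPKM in the knockout against 4.14 FPKM in wild type in the tracking table. ENST00000421735 (chr3:50304073-50304803) had 0 in the knockout against 1.39 FPKM in wild type in the test table, and 0.326 FPKM in the knockout against 1.36 FPKM in wild type in the tracking table. ENST00000446211 (chr10:35104695-35105314) changed direction, with 0 in the knockout against 1.28 FPKM in wild type in the test table and 1.74 FPKM in the knockout against 1.25 FPKM in wild type in the tracking table. ENST00000448674 (chr9:117159004-117160783) stayed at 0 in the knockout, and its wild type value was 1.02 FPKM in the test table and 0.998 FPKM in the tracking table. It left the rule only because the latter lies just under the minimum of 1 FPKM.

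The authors' deposited table tested 1657 of the 7365 loci (22.5%), and 45 were called at q of at most 0.05. These are 2.72% of the tested loci, against 0.255% of all 85852 tested transcripts. In the knockout, 9 were higher (0.543%, against 0.0629% of all) and 36 were lower (2.17%, against 0.192% of all). By their p-values in that table, 41 of the 45 were at the lowest value, 5e-05 (q = 0.0220), and 4 at 0.0001 (q = 0.0392). An unadjusted p under 0.05 in the authors' deposited table was listed for 251 of the tested loci (15.1%), against 2.38% of all tested transcripts. The comparison with all transcripts mixes structures, since in loci of several transcripts the RNA is divided among them. There, 0.148% of 79975 tested transcripts were called. Of the tested single-transcript loci over 3000 bases 24 of 498 were called (4.82%), and of those under 351 bases 7 of 316 (2.22%). Differences between these classes could not be tested with group values.

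Most of the calls had a group at 0. The knockout was at 0 in 29 called loci and wild type in 8, and both groups were above 0 in the other 8. With both groups above 0, 8 of 1582 tested loci were called (0.506%), against 0.204% of all transcripts so tested. Of the 45, 33 were under 1 FPKM in both groups. The larger group had a median of 39.6 fragment equivalents and a minimum of 12.3. The deposited intervals of the groups did not overlap in 5 of the 45, beside 93 of the 219 called transcripts of the series.

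Among the 8 called loci above 0 in both groups, 7 were lower in the knockout and 1 was higher. ENST00000378453 (chr1:2460184-2461684) fell the most, to 0.725 FPKM in the knockout against 7.69 FPKM in wild type, a 10.6-fold lower value. The tracking table gives 0.552 FPKM (interval 0.0514 to 1.05) in the knockout and 7.52 FPKM (4.21 to 10.8) in wild type, so the intervals lie apart. ENST00000606645 (chr1:2477904-2478899), lies near it, and these 2 are the only called loci within 100 kb of each other. It was at 5.68 FPKM in knockout cells and at 15.8 FPKM in wild type, 2.78-fold lower. The locus of 12 transcripts 2144 bases from ENST00000378453 was nearly level, at 35.9 FPKM in knockout cells and 33.1 FPKM in wild type.

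Intervals also lay apart for 3 other loci that fell. ENST00000568280 (chr11:17402196-17405078) had 1.32 FPKM in the knockout and 6.76 FPKM in wild type, 5.10-fold lower. ENST00000390689 (chr21:31852018-31852663) had 1.80 FPKM in the knockout and 8.50 FPKM in wild type, 4.73-fold lower. ENST00000607057 (chr3:40507957-40510078) had 0.917 FPKM in the knockout and 3.01 FPKM in wild type, 3.28-fold lower. For all 3 the tracking table gave knockout values close to those of the test table, at 1.44, 1.87 and 0.874 FPKM.

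The intervals overlapped for the other 3 falls and for the rise. ENST00000264376 (chr2:208986331-208989225) had 3.75 FPKM in the knockout and 13.8 FPKM in wild type, 3.67-fold lower, and 5.95 FPKM in the knockout of the tracking table. ENST00000605365 (chr2:60962030-60962850) had 10.7 FPKM in the knockout and 29.4 FPKM in wild type, 2.75-fold lower; the other was ENST00000606645, given above. The rise was ENST00000298743 (chr9:89559279-89562104), with 33.5 FPKM in the knockout and 16.8 FPKM in wild type, 1.99-fold higher, and with 30.3 FPKM in knockout cells and 16.4 FPKM in wild type in the tracking table. It holds 6873 fragment equivalents in the knockout and 5813 in wild type, the most of any called locus.

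**Figure D3:**
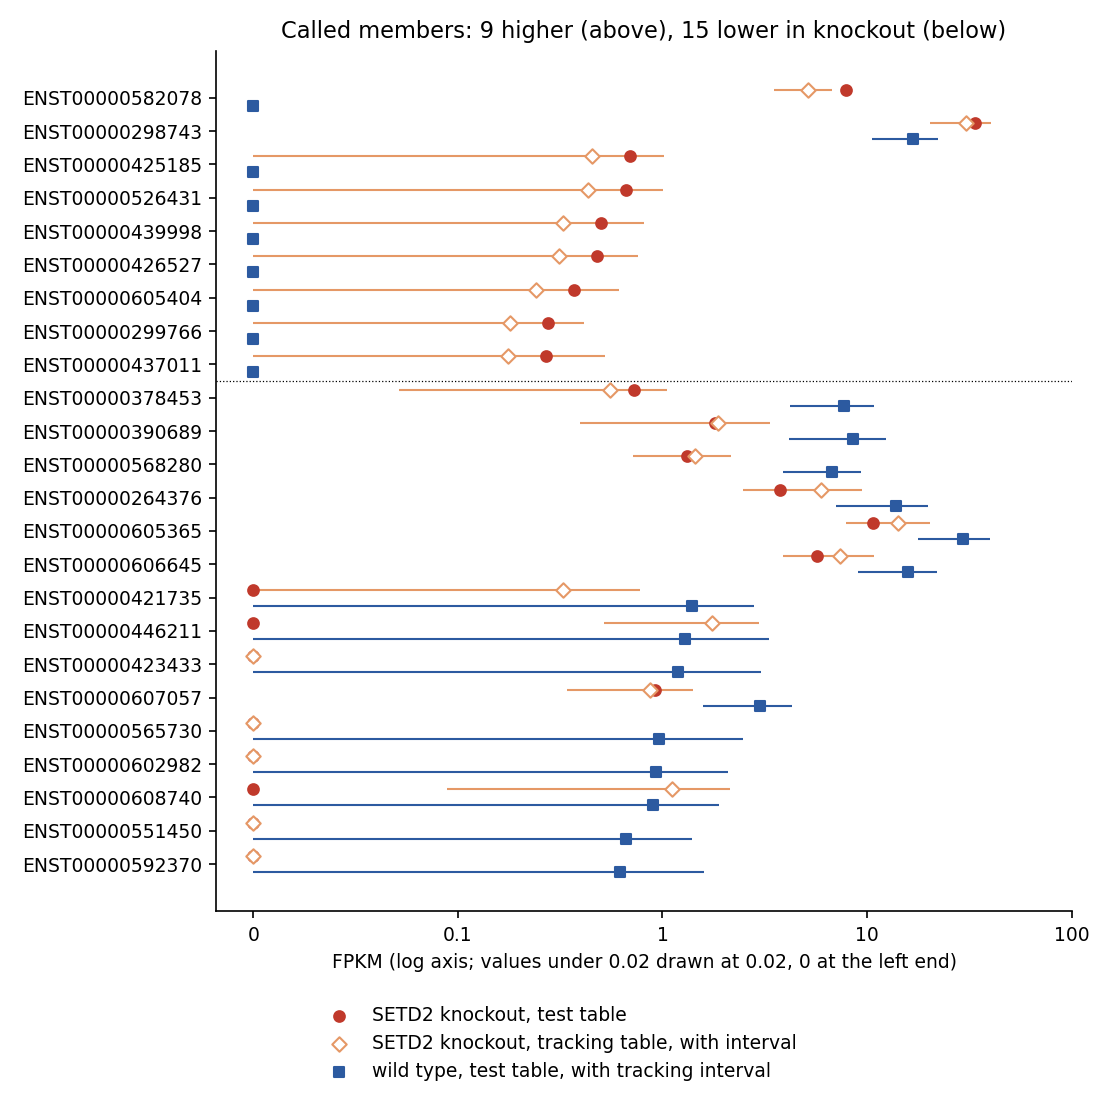
FPKM (x axis, log, 0 at the left) of the 9 called loci higher in the SETD2 knockout (above the dotted line) and the 15 called loci with the largest falls (below it). For each, the knockout is the upper row, as a red circle for the test table and an open diamond with its interval for the tracking table, and wild type is the lower row, as a blue square with the tracking interval. Where both knockout values are 0 the diamond covers the circle; ENST00000446211 and ENST00000608740 have a circle at 0 and a diamond to the right of the wild type square.

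The 29 called loci at 0 in the knockout were low in wild type, from 0.279 to 1.39 FPKM with a median of 0.477 FPKM. They stood for 16.6 to 122 fragment equivalents there. By the tracking table, 15 of the 29 were still at 0 in the knockout and 14 were above 0, from 0.0138 to 1.74 FPKM. In 2 of those 14 the knockout was above wild type. They were ENST00000446211, given above, and ENST00000608740 (chr1:161344552-161345130), at 0 in the knockout against 0.902 FPKM in wild type in the test table and at 1.12 FPKM in the knockout against 0.883 FPKM in wild type in the tracking table.

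A level at 0 in the knockout was not enough for a call. A further 31 loci at 0 in the knockout were tested and not called, at 0.282 to 4.23 FPKM in wild type, with p from 0.00015 to 0.0696 in the authors' deposited table. Their wild type values reached 509 fragment equivalents, more than any of the 29 that were called. Another 796 were at 0 in the knockout and not tested, with a median of 0.0414 FPKM in wild type. Of the loci at 0 in wild type, 15 were tested and 8 called, with 0.271 to 7.89 FPKM in the knockout. Apart from ENST00000582078, the highest of the 8 was ENST00000425185 (chr1:91317316-91319843) at 0.697 FPKM in the knockout and 0 in wild type. Its tracking interval in the knockout, 0 to 1.01 FPKM, reaches 0. It stood for 126.5 fragment equivalents in the knockout of the test table and 126.4 in that of the tracking table. For each of the 8 these counts were nearly alike in both tables, although the tracking table has a further knockout level. The tracking values of the 8 therefore add no separate support.

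Some large differences were not called. Where a group reached 5 FPKM, the largest rise not called was ENST00000517466 (chr8:82167105-82167464), with 11.2 FPKM in the knockout and 3.65 FPKM in wild type (q = 0.991 in the authors' deposited table). ENST00000417147 (chr2:222808942-222809331) followed, with 23.9 FPKM in the knockout and 10.8 FPKM in wild type (q = 0.453). The largest fall not called was ENST00000199708 (chr16:230452-231180), with 2.45 FPKM in the knockout and 9.27 FPKM in wild type (q = 0.124). ENST00000567319 (chr15:57617670-57618645) had 6.49 FPKM in the knockout and 15.6 FPKM in wild type (q = 0.184).

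RNA at these loci was held by few of them and, in the test table, was nearly level between the groups. The FPKM of all 7365 loci summed to 21227 in the knockout and 21674 in wild type, which is 1.67% of the whole table in the knockout and 1.60% in wild type. The highest 10 loci held 24.5% of this sum in the knockout and 25.8% in wild type, and the highest 100 held 67.4% in the knockout and 68.2% in wild type. Of the highest 100, 96 were within 1.5-fold, 46 were lower in the knockout and 0 were called by the authors' Cuffdiff test, with 13 at an unadjusted p under 0.05. These counts are from the test table. The median log2 difference of the 100, knockout over wild type, was 0.02 in the test table and 0.18 in the tracking table. Short spans were frequent among them, with 42 in the shortest 25% of the loci (351 to 567 bases).

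ENST00000417615 (chr14:99439216-99439638) was the highest, at 965 FPKM in knockout cells and 1005 FPKM in wild type in the test table, and at 1113 FPKM in knockout cells and 982 FPKM in wild type in the tracking table. Both differences are small beside the intervals, 757 to 1470 FPKM in knockout cells and 656 to 1308 FPKM in wild type. ENST00000420977 (chr1:77165474-77166223) had 637 FPKM in the knockout and 649 FPKM in wild type. ENST00000331825 (chr19:49468558-49470135), the longest of the highest 10, had 345 FPKM in the knockout and 383 FPKM in wild type. In the test table, the largest difference among the 10 was at ENST00000326586 (chr6:42924083-42924503), with 290.1 FPKM in the knockout and 465 FPKM in wild type (p = 0.00095, q = 0.218 in the authors' deposited table). In the tracking table it had 350.4 FPKM in the knockout and 454 FPKM in wild type, with overlapping intervals. In the tracking table ENST00000498453 (chr5:130325590-130326121) differed more, with 391 FPKM in the knockout and 295 FPKM in wild type. In 6 of the 10 the direction differed between the tables.

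Differences were taken over loci that reached 1 FPKM in either group and were above 0 in both. Over 1048 such loci the median log2 difference, knockout minus wild type, was 0.08 (quartiles -0.27 and 0.37), beside 0.06 over all 12467 loci of the series that passed the same filter. Of the 1048, 56.8% were higher in the knockout and 70.3% were within 1.5-fold. In the tracking table the median was 0.12 over 1040 loci, beside 0.08 over all loci. Those of at least 10 FPKM had a median of 0.02 in the test table (343 loci) and 0.14 in the tracking table (339 loci). In the test table the median was 0.01 for single-transcript loci over 3000 bases, -0.06 for those under 351 bases and 0.07 for loci of several transcripts. In the tracking table these medians were 0.01, 0.006 and 0.08, in the same order.

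By the test table, 64 loci were at least 2-fold higher in the knockout and 64 at least 2-fold lower, and the tracking table gave 63 and 54. Each count of the test table is 6.11% of the loci compared, beside 4.62% higher and 5.58% lower over all loci. None of the 64 higher ones was called by the authors' Cuffdiff test, although 29 had an unadjusted p under 0.05. Of the 64 lower ones 7 were called and 41 had an unadjusted p under 0.05. The larger group had a median of 91.7 fragment equivalents in the higher ones and 181 in the lower ones. These medians are not on one scale, since the larger group is the knockout in the higher ones and wild type in the lower ones. A fragment equivalent is 0.0128 FPKM × kb in the knockout and 0.00760 FPKM × kb in wild type.

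The spread of the differences narrowed with depth. The interquartile range of the log2 difference was 2.29 for the 404 loci under 10 fragment equivalents (mean of both groups), 1.71 for 595 loci from 10 to 50 and 1.01 for 460 loci from 50 to 200. It was 0.583 for 416 loci from 200 to 1000 and 0.408 for 255 loci over 1000. A difference of at least 2-fold was seen in 55.2% of the first class and in 1.96% of the last. All 8 calls with both groups above 0 came from the 671 tested loci of at least 200 fragment equivalents. Below that, the authors' Cuffdiff test called 0 of 911, of which 73 had an unadjusted p under 0.05.

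**Figure D4:**
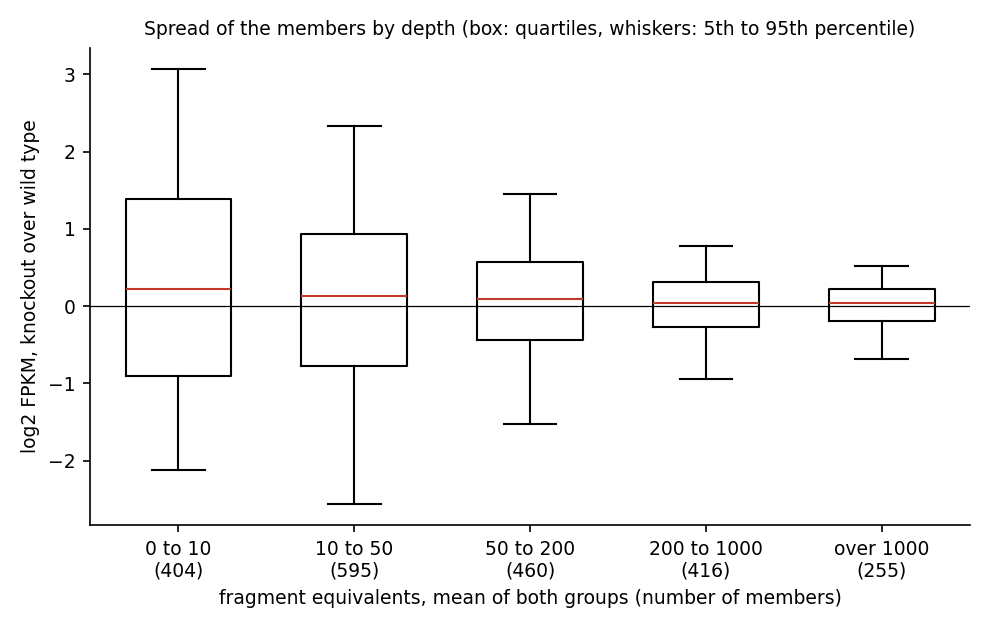
Log2 FPKM difference, SETD2 knockout over wild type in the test table (y axis), of loci above 0 in both groups, by the mean of their fragment equivalents (x axis, number of loci in brackets). Boxes are quartiles with the median in red and whiskers run from the 5th to the 95th percentile; the interquartile range narrows from 2.29 in the leftmost class to 0.408 in the rightmost.

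Length within the rule made little difference to the median. In 4 classes of length with nearly equal numbers of loci, from 351 to 567, 568 to 914, 916 to 1386 and 1387 to 2998 bases, the median log2 difference was 0.01, 0.03, 0.12 and 0.11 in the test table. In the tracking table it was 0.12, 0.10, 0.15 and 0.12. Calls numbered 10, 18, 5 and 12 in the same order. Spearman's rho between length and the log2 difference was 0.0585 over 1048 loci, as a description, since short spans also hold fewer fragments at the same FPKM.

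Loci close to another locus were detected more often in both groups. Within 1 kb of another locus, 43.6% of 1013 loci were above 0 in the knockout and 55.3% in wild type. At more than 50 kb, 25.7% of 763 loci were above 0 in the knockout and 33.6% in wild type. Of the 45 calls, 29 lay within 5 kb of another locus, where 774 of the 1657 tested loci lie (46.7%). Calls did not rise steadily with closeness. They were 8 of 360 tested loci within 1 kb and 21 of 414 at 1 to 5 kb. At 5 to 50 kb they were 15 of 741, and beyond 50 kb 1 of 142. The log2 difference of a locus and that of its nearest expressed neighbour were weakly related. Spearman's rho was 0.227 for 171 loci with such a neighbour within 1 kb, 0.0953 for 153 loci at 1 to 5 kb, 0.131 for 398 loci at 5 to 50 kb and 0.00602 for 326 loci beyond. Among loci of at least 200 fragment equivalents the values were 0.133, 0.0654, 0.170 and 0.0661 over 111, 104, 265 and 239 loci, so the order by distance depended on the filter. Both values of a pair come from the same libraries. Reads that run from a neighbour into the locus were not told apart from its own RNA.

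On chromosome 3 these loci and the other loci had different medians. There, 572 loci of several transcripts had a median log2 difference of -0.25, with 393 of them lower in the knockout, while 66 single-transcript loci of 351 to 3000 bases had a median of 0.03, with 31 lower. Among 43 of those 66 with at least 200 fragment equivalents the median was 0.04. The 13 single-transcript loci over 3000 bases on chromosome 3 had a median of -0.33. The tracking table gave 0.05 for the same 66 loci and -0.26 for loci of several transcripts. The quartiles of the 66 loci, -0.36 and 0.34, and of the 572, -0.52 and 0.07, overlap, and no test of the difference could be run with group values.

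Over the 22 chromosomes, Spearman's rho between the median of these loci and that of all other loci was 0.0909 in the test table and 0.00847 in the tracking table, with 16 to 125 loci behind each of the medians of these loci. The lowest median was on chromosome 21, at -0.42 over 16 loci in the test table, and it was -0.00381 in the tracking table. Chromosome 22 had the highest in the test table, at 0.23 over 30 loci, but 0.16 in the tracking table, where chromosome 11 was higher at 0.20. The 45 calls were spread over 18 chromosomes.

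**Figure D5:**
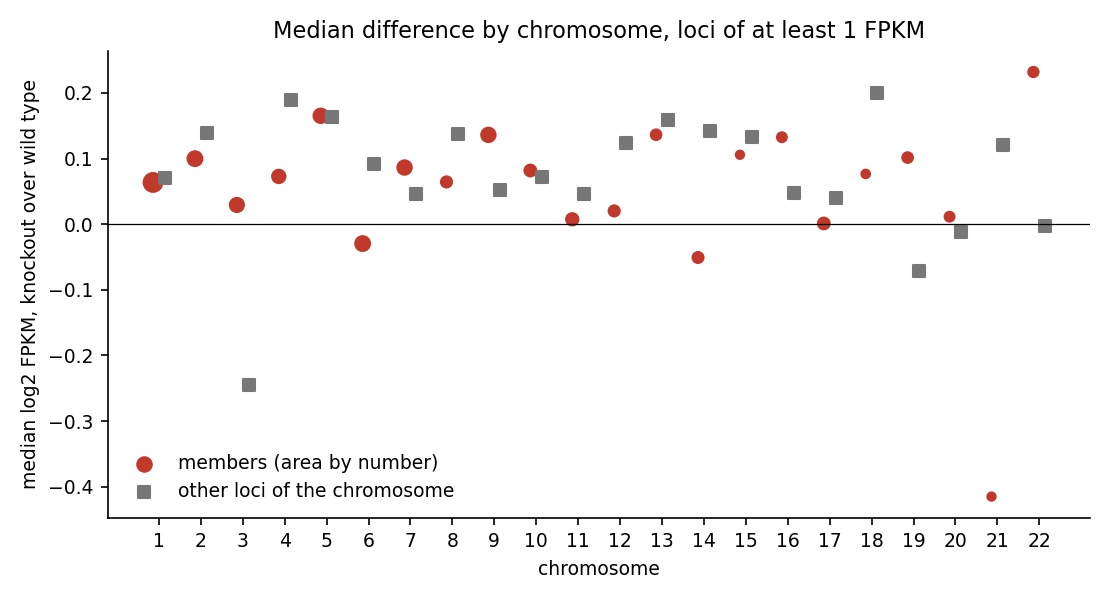
Median log2 FPKM difference, SETD2 knockout over wild type in the test table (y axis), on each chromosome (x axis), over loci above 0 in both groups that reach 1 FPKM in either. Red circles are the single-transcript loci of 351 to 3000 bases, drawn larger where there are more of them, and grey squares are all other loci of the chromosome; on chromosome 3 the circle is at 0.03 and the square at -0.25.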

How the data were processed

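RNA of SETD2 knockout and wild type HEK293T cells was measured by sequencing of RNA depleted of ribosomal RNA, with 3 libraries for each genotype, per the labels' protocols. Bowtie 1.1.2, TopHat, Cuffdiff and the build hg19 appear in the submitters' processing notes with no roles given; which annotation was used is not given. The authors deposited FPKM values per transcript and group, with interval bounds in 1 table. Per the file headers, the authors also deposited a log2 fold (wild type over knockout), p-values, q-values and a test statistic, here treated as a score. The table named for transcripts was identical to that named for genes and was used once. Log2 folds are printed as knockout over wild type, the opposite of the deposited sign. Starts had 1 added. Loci with a failed estimate were left out; none was among the 7365.

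Calls use the authors' q-value at 0.05, adjusted by the authors over the whole table. No test could be run on group values. Folds are ratios of FPKM with no pseudocount, over loci that reach 1 FPKM in either group. The loci named are the 10 highest, the 15 largest rises and 15 largest falls among calls by log2((knockout + 1)/(wild type + 1)), the 5 largest of each not called at 5 FPKM or more, the 5 highest gained and 5 highest lost, and the 5 whose knockout values differ most between tables. Other gained or lost loci were named after their values were seen. The loci, lists and tests were chosen with earlier results of these data known. Gene classes listed for naming could not be applied, since no ID matched.

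Levels of single fragments were searched after the data were seen. FPKM times the span less a fixed number of bases was searched from 100 to 320 bases taken off, and a level needs 20 loci within 0.5% that are no sum of lower levels within 1%. The search was tested on simulated data with 2 and with 3 levels, spaced about as in the knockout. Levels as near to each other as 0.00838 and 0.00849 FPKM × kb in wild type were not simulated, nor were introns. Fragment equivalents assume no intron in the span and are at most what the deepest library would give. By the tracking table, 2 near levels of wild type could not be separated. Software was matplotlib 3.10.9, scipy 1.17.1, numpy 2.4.6, pandas 2.3.3 and Python 3.11.15.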

Additional observations from a re-analysis of the deposited data

How the results depend on the processing

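Of 108 values of the summary results under 31 alternative settings, 65 stayed near the reported value and 43 moved. Near means within 1.5-fold for counts. For the median it means inside a 95% interval taken over the loci, 0.034 to 0.104, and loci are not replicates. Keeping failed estimates could move no value, since none of these loci had one, yet its values are among the 65. Moved detection counts were 987 loci in the knockout and 968 in wild type at 1 FPKM, 464 and 475 at 5 FPKM, 1918 in wild type at 10 fragment equivalents, and 1210 and 1609 among loci at least 5 kb from others. The tracking table gave 6 losses in place of 10 and a median log2 difference of 0.12 in place of 0.08. With the minimum at 0.5 FPKM there were 7 gains and 31 losses, at 2 FPKM 3 losses and at 5 FPKM 0 losses. With up to 0.1 FPKM allowed in the lacking group there were 3 gains, from 500 bases 0 gains, and at least 5 kb from others 0 gains and 2 losses. The median was 0.026 at 5 FPKM, 0.023 at 10 FPKM and 0.016 after centring on all loci.

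The authors' Cuffdiff q at 0.01 leaves 0 calls, 0 higher and 0 lower in the knockout, since the lowest q is 0.0220. An unadjusted Cuffdiff p under 0.05 was listed for 251 of 1657 tested loci (15.1%), against 2.38% of all tested transcripts. At q of 0.1 there were 14 higher, and at p of 0.001 77 calls (18 higher, 59 lower). Calls of at least 1 FPKM in a group were 12 (2 higher, 10 lower), those above 0 in both groups 8 (1 and 7), those with intervals apart 5 (1 and 4), and those of at least 50 fragment equivalents 19 (5 and 14). At least 5 kb from others there were 16 (5 and 11), and up to 2000 bases 5 were higher. Of 52 named loci, 11 had the opposite direction in the tracking table on the log2(FPKM + 1) scale. Of these, 2 were called, ENST00000446211 (0.28) and ENST00000608740 (0.17), 6 were among the highest 10, and 3 were ENST00000455360, ENST00000489253 and ENST00000522973. The settings on fragment equivalents and on direction in the tracking table were chosen after seeing the data. No paired analysis was possible because the files hold 1 value per group; for the same reason no library could be left out. The spread of differences widened below 200 fragment equivalents, where no call had both groups above 0; the part of depth in this was not tested.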

Other observations

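The locus nearest to ENST00000556988 (chr14:53503473-53504969) was chr14:53510686-53620000, with 10 transcripts. Summed over them, it had 815 FPKM in knockout cells and 4.77 FPKM in wild type in the test table. In the tracking table the sums were 1203 FPKM in knockout cells and 4.65 FPKM in wild type. The authors' calls for these transcripts, and the share of each in the sums, are not given here. ENST00000556988 itself, 5716 bases away, went the other way, at 2.11 FPKM in knockout cells and 7.32 FPKM in wild type, and was not called (q = 0.949 in the authors' deposited table). The neighbour was chosen after its values were seen.

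ENST00000522973 (chr5:135233326-135235939) was at 0 in the knockout and 0.112 FPKM in wild type in the test table, but at 0.945 FPKM in knockout cells and 0.110 FPKM in wild type in the tracking table. ENST00000455360 (chr17:20467851-20468202) was at 0.547 FPKM in knockout cells and 0.977 FPKM in wild type in the test table, and at 2.58 FPKM in knockout cells and 0.952 FPKM in wild type in the tracking table, so its direction depends on the table.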
